A study of Mus musculus with 20 samples.

Results

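The cell cycle and DNA replication genes described here are a list of 41 genes picked by symbol, from the D-type cyclins that open the cycle to the kinases and checkpoint proteins that run mitosis. Of the 41, 39 had a probe in the platform's probe table, and 28 had a probe detected (detection p under 0.05) on at least 5 of the 20 arrays. These 28 were read among 12976 genes and unnamed probes tested in all. Ccnb1 and Mki67 were not analysed here.

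The arrays measured liver RNA of male mice to ask what an antagonist of Toll-like receptors 7 and 9, sensors of nucleic acids in endosomes, did to hepatic gene expression. The treated WT group was wild-type C57BL/6 mice given the antagonist into the peritoneum at 15 mg/kg, 3 injections a week between weeks 6 and 11. The untreated WT group was wild-type C57BL/6 mice without antagonist. The treated ApoE-/- group was C57BL/6 mice lacking apolipoprotein E, given the same injections, and the untreated ApoE-/- group was such mice without antagonist. All mice ate a high fat diet from week 6 and were killed at 14 weeks, after dosing had ended. The WT diet held 35% fat and 0.03% cholesterol and the ApoE-/- diet 21% fat and 0.15% cholesterol, so genotype and diet formula cannot be told apart. Each group had 5 arrays, and no label ties an array to a single mouse, so the tests see the spread between arrays, which may be technical.

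As background, a cell enters the cycle when D-type cyclins bind the kinases Cdk4 and Cdk6, which phosphorylate the retinoblastoma protein and free E2F factors to switch on replication genes. The Mcm helicase is then loaded on origins and fires in S phase, and genes of mitosis are switched on later through promoter elements called CHR and CCAAT boxes. Most hepatocytes of an adult liver are outside the cycle and re-enter it after injury or loss of tissue, whereas immune cells and other non-parenchymal cells divide on their own schedules. In RNA of whole liver, fewer cells of a type and less RNA per cell cannot be told apart.

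To show where E2F and CHR letters lie in members that rose, 160 bases before the RefSeq start of 5 genes that hold them (assembly GRCm38.p6, each printed 5′ to 3′ on the gene's own strand) are given. Mcm5 (chr8:75109349-75109508, plus strand) and Mcm6 (chr1:128359706-128359865, minus strand) carry E2F letters in capitals, while Cdk1 (chr10:69352913-69353072, minus strand), Cdc20 (chr4:118437344-118437503, minus strand) and Top2a (chr11:99024190-99024349, minus strand) carry CHR letters in capitals.
Mcm5: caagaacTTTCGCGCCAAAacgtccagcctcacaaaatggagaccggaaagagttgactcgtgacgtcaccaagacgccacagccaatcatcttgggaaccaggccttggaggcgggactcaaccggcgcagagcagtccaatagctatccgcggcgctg
Mcm6: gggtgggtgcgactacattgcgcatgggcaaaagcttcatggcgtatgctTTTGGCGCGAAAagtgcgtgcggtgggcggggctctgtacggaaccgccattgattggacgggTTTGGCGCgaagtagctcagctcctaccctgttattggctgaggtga
Cdk1: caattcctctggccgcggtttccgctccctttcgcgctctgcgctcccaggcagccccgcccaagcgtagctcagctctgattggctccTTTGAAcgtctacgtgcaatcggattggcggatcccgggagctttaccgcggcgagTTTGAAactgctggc
Cdc20: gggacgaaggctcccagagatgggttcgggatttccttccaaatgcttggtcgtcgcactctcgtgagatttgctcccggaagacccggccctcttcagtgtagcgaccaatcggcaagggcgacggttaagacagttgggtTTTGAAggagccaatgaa
Top2a: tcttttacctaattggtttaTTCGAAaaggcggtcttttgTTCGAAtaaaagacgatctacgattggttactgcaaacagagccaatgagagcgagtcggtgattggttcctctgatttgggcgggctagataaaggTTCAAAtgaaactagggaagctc
The capitals of Mcm5 hold overlapping matches that begin at positions -153 and -149, where the base before the start is -1. Mcm6 has overlapping matches at -110 and -106 and another at -47. Cdk1 has CHR letters at -71 and -15 and Cdc20 at -18, and Top2a has them at -140, -120 and -23, the last on the opposite strand. The printed bases of Cdk1 also hold E2F letters, at -131, left in lower case.

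The E2F search used TTTCCCGC, TTTCGCGC, TTTGCCGC and TTTGGCGC, the CHR search TTTGAA and TTCGAA, and the CCAAT box search CCAAT, on both strands of the 250 bases before each start, so that matches on opposite strands can overlap. RefSeq gave a promoter for 23 of the 28 tested members. Ccnd1, Ccnd2, Mcm4, Aurkb and Stmn1 had no entry. E2F letters were present in 6 of the 23 (26.1%), and in 4 of 7 licensing and fork genes (57.1%: Cdc6, Mcm5, Mcm6 and Mcm7), compared with 1.86% of 32851 promoters of the same length. The other members with E2F letters were Cdk1, of the G2 and mitosis genes, and Cdk2, of the G1/S genes. CHR letters were present in 6 of the 23 (26.1%), compared with 17.1% of all promoters. They were in 4 of 7 G2 and mitosis genes (57.1%: Cdk1, Bub1b, Cdc20 and Top2a, but not Plk1, Aurka or Birc5), in 2 of 7 licensing and fork genes (28.6%: Mcm2 and Mcm7) and in 0 of the G1, G1/S and deoxynucleotide genes. A CCAAT box was present in 16 of the 23 (69.6%), compared with 33.8% of all promoters. A member counted when any of its promoter entries matched, whereas the shares of all promoters are per entry. Members with several entries, such as Mcm7, thus had more chances to match, and the shares are not strictly alike. These counts describe letters and not binding.

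Most of the measured genes were higher in treated livers of either genotype. In WT mice 19 of the 28 rose, 1 fell (Tyms) and 8 did not pass the test (Benjamini-Hochberg adjusted p under 0.05 in limma), where 38.4% of all features passed, 21.7% upward and 16.7% downward. In ApoE-/- mice 20 rose, 1 fell (Cdk4) and 7 did not pass, where 29.6% of all features passed, 16.3% upward and 13.3% downward. Mcm7 passed upward in WT mice and not in ApoE-/- mice, and Cdkn2c and Aurka the other way round, though none of these 3 differed between genotypes past the threshold. The median log2 change of the 28 was 0.66 in WT and 0.66 in ApoE-/- livers, against -0.000551 and 0.00708 over all features. Where a member lay below detection on every untreated array, its change has only a lower bound; with those members at their bound the medians were 0.51 and 0.58.

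A gene that passed the detection filter only through its treated arrays had to differ, so these counts are a description. The filter cannot have acted this way on the 14 members detected on all 20 arrays. Of those 14, 9 rose and 1 fell in WT livers, against 21.1% up and 23.1% down among the 8437 features detected on all 20 arrays. In ApoE-/- livers 9 of the 14 rose and 1 fell, against 16.5% and 18.3%. Of the 28 members, 14 had every treated WT array above every untreated WT array, against 16.6% of all features, and 13 did so in ApoE-/- mice, against 10.5%. The opposite pattern, every treated array lower, held for 0 members in WT mice (11.7% of all features) and for Cdk4 alone in ApoE-/- mice (7.84%).

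**Figure D1:**
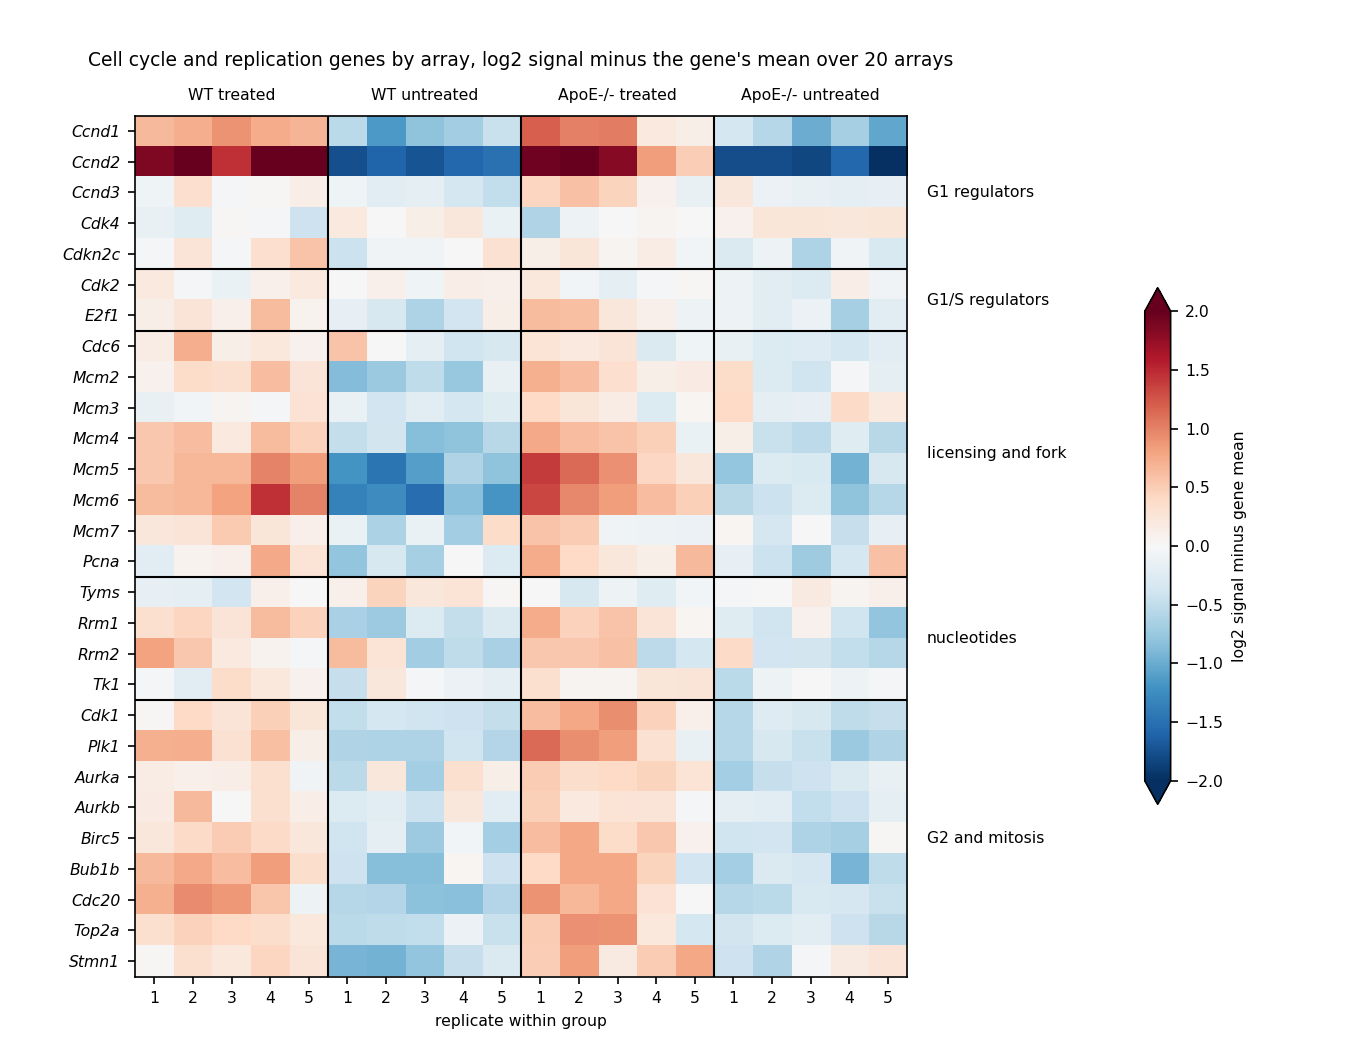
Log2 signal of each of the 28 measured genes on each of the 20 arrays, minus the gene's own mean, in rows by phase and columns by group and replicate; colours stop at 2, which Ccnd2 exceeds. Treated arrays are mostly red and untreated arrays mostly blue in both genotypes, and replicates 4 and 5 of the treated ApoE-/- group are paler than replicates 1 to 3.

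The heatmap of single arrays also shows a split within the treated ApoE-/- group. Replicates 4 and 5 were the lowest 2 of the 5 treated ApoE-/- arrays for 17 of the 28 genes, and of the 5 treated WT arrays for 2 (Rrm2 and Cdc20). The share of all features with this order is not given here. On the first principal component of all features, treated ApoE-/- replicates 4 and 5 were the treated arrays nearest the untreated ones. They lay at -24.5 and -6.03, against -38.4 to -34.2 for replicates 1 to 3 of that group. The split was thus not shown to be particular to these genes. Replicates 1 to 3 and replicates 4 and 5 carry different kinds of column names and were read as array batches 1 and 2. In batch 1 alone 18 members rose and 1 fell in WT mice, where 29.8% of all features passed, and 20 rose and 0 fell in ApoE-/- mice, where 27% passed. In batch 2 alone 14 rose and 0 fell in WT mice (26.4% of all features), but only 6 rose and 0 fell in ApoE-/- mice (8.02%). The batch 2 arrays of treated ApoE-/- livers were on slide 1, with those of both WT groups, and the untreated ApoE-/- ones on slide 2, so treatment and slide cannot be told apart there. Those 6 were Ccnd1, Ccnd2, Mcm5, Mcm6, Rrm1 and Cdk1. The median change of the 28 in ApoE-/- mice was 0.81 in batch 1 and 0.42 in batch 2, and in WT mice 0.64 and 0.63.

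The size of the changes also depended on the background correction. Without it the median change was 0.26 in WT and 0.28 in ApoE-/- livers, and in the authors' processed values 0.23 and 0.26, while the numbers that rose were 19 in either genotype without correction and 19 and 20 in the authors' values. All other changes are given after background correction. With arrays scaled only to equal medians the whole table shifted up by 0.26 in WT and 0.09 in ApoE-/- livers, 87.4% of all calls in WT and 72.5% in ApoE-/- livers were upward (56.5% and 55.2% after quantile normalization), and 25 members rose and 0 fell in WT livers and 21 and 0 in ApoE-/- livers. The shares of all features that rose in these alternative settings are not given here, so these counts describe the members alone.

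Treated WT arrays detected 16051 to 18748 probes, against 14436 to 16032 for untreated WT arrays, and treated ApoE-/- arrays 15816 to 17598, against 15530 to 16660. The first principal component of all features, with 49.8% of the variance, ran between -42.7 and -6.03 on the 10 treated arrays and between 22.6 and 40.5 on the 10 untreated ones, with replicate 5 of the treated ApoE-/- group at -6.03. The log2 signal of Apoe was 5.26 to 6.67 and 5.92 to 6.88 in treated and untreated ApoE-/- livers and 13.6 to 14.5 and 13.9 to 14.6 in treated and untreated WT livers, so each array matched its genotype label. Hepatocyte markers fitted the labelled tissue, with all 12 detected on every array.

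Genes that mark other cells of the liver were also tested in these contrasts, in which 21.7% of all features rose and 16.7% fell in WT mice and 16.3% rose and 13.3% fell in ApoE-/- mice. Of 12 tested Kupffer cell and macrophage markers 7 rose and 2 fell in WT mice and 7 rose and 1 fell in ApoE-/- mice. Their summed linear signal was 8466 to 10900 in treated WT livers, against 2481 to 3746 in untreated WT livers, and 7849 to 13931 in treated ApoE-/- livers, against 5574 to 7001 in untreated ApoE-/- livers; Cd5l was detected on 0 arrays. Of 8 monocyte and neutrophil markers 7 rose in WT and 3 in ApoE-/- mice, with sums of 1090 to 2098 in treated against 306 to 513 in untreated WT livers and 1034 to 2081 against 735 to 1173 in ApoE-/- livers, and Ccr2 on 0 arrays. Of 6 T and NK cell markers 4 rose and 1 fell in WT and 5 rose and 1 fell in ApoE-/- mice, with sums of 459 to 601 in treated against 559 to 815 in untreated WT livers and 545 to 681 against 613 to 967 in ApoE-/- livers. Their mean log2 signal was 5.93 in treated against 5.43 in untreated WT livers and 6.26 against 5.45 in ApoE-/- livers. A sum gives most weight to the brightest genes, so it need not follow the number of markers that rose. The T and NK cell markers Cd8a, Ncr1 and Gzmb were detected on 0 arrays.

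Of 3 B and plasma cell markers 3 rose in WT and 1 in ApoE-/- mice (sums of 216 to 335 against 71.7 to 83.9 in WT and 118 to 248 against 73.4 to 93.3 in ApoE-/- livers), with Pax5 and Jchain on 0 arrays. Erythroid markers, 6 in number, rose for 4 and fell for 1 in WT and rose for 2 and fell for 1 in ApoE-/- mice (13757 to 29836 against 5281 to 7463, and 10693 to 16658 against 5414 to 15759). Endothelial markers, 8 in number, rose for 4 in WT mice and rose for 1 and fell for 3 in ApoE-/- mice (4351 to 5741 against 3072 to 4415, and 4063 to 5081 against 4173 to 4672). Stellate cell and fibroblast markers, 11 in number, rose for 6 in WT and 2 in ApoE-/- mice, the 2 a share near that of all features (11096 to 13960 against 5700 to 7465, and 9663 to 11983 against 6634 to 9040). Sox9, the one cholangiocyte marker tested, rose in WT mice, with Krt19, Epcam and Cftr on 0 arrays. Of 12 hepatocyte markers 2 rose in WT and 3 in ApoE-/- mice, with sums of 161904 to 184549 against 163119 to 179924 in WT and 165947 to 192313 against 168630 to 188160 in ApoE-/- livers. The part of these cell types in the cell cycle changes was not tested.

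**Figure D2:**
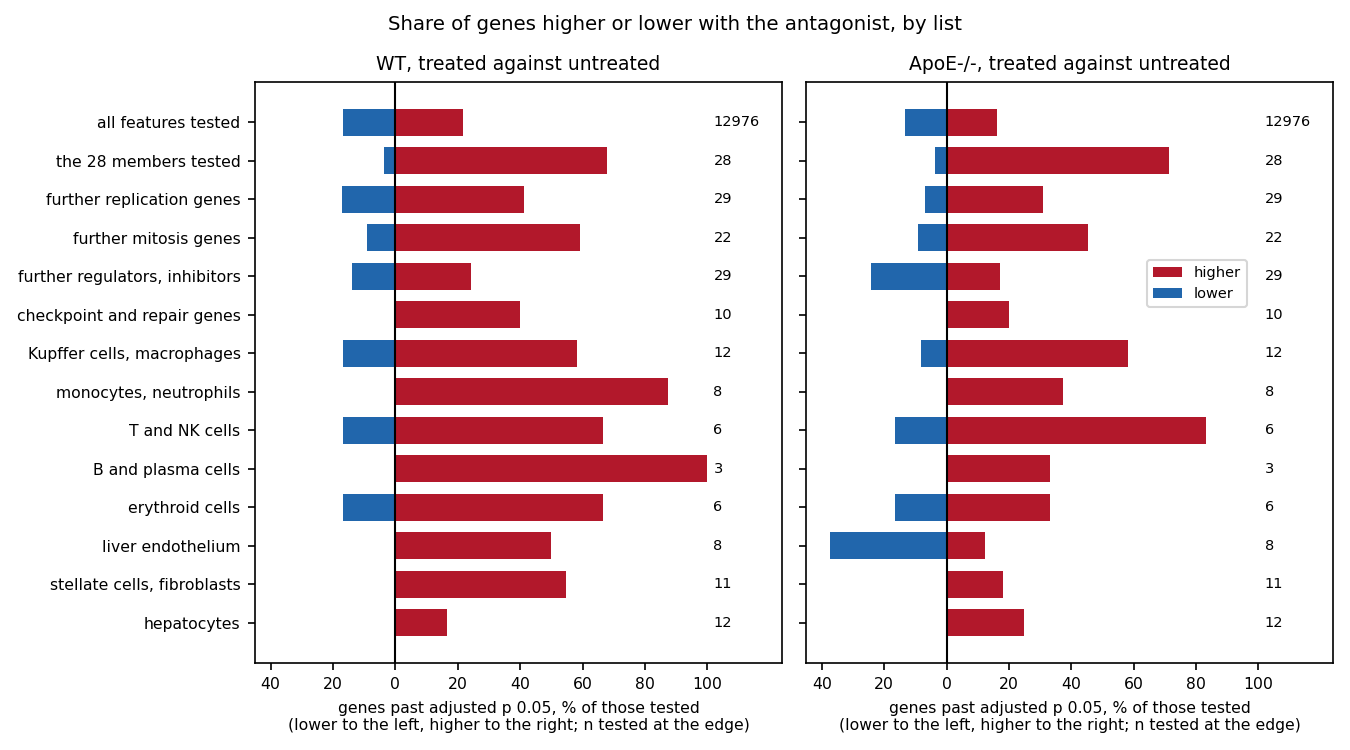
Share of the tested genes of each list that were higher (right) or lower (left) in treated livers at a limma adjusted p under 0.05, in WT (left panel) and ApoE-/- mice (right panel), with the number tested at the edge. The 28 cell cycle genes have 19 higher and 1 lower in WT and 20 and 1 in ApoE-/- livers. In WT mice every list holds more genes higher than lower, and in ApoE-/- mice all but the endothelial and the further regulator lists.

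The G1 regulators held the largest change of the 28 members. Ccnd2 encodes cyclin D2, a D-type cyclin that is also prominent in dividing lymphocytes. Its log2 signal was 9.91, 10.06, 9.51, 10.48 and 10.06 in treated WT livers, against 6.28, 6.43, 6.31, 6.48 and 6.55 in untreated WT livers. Ccnd2 in ApoE-/- livers was 9.99, 10.38, 9.86, 8.87 and 8.54 with treatment, against 6.27, 6.26, 6.22, 6.47 and 5.90 without. Treated and untreated arrays stood apart by about 2 log2 units or more in both genotypes, with treated ApoE-/- replicates 4 and 5 below the other treated arrays. The rise was 12.1-fold in WT livers (log2 3.59, 95% interval 3.06 to 4.13, adjusted p 1.32e-09) and 9.87-fold in ApoE-/- livers (log2 3.30, 2.77 to 3.84, adjusted p 3.49e-08). In a fit over all probes, a further probe of Ccnd2 detected on all 20 arrays gave log2 changes of 3.43 and 3.18, and one detected on 8 treated arrays lay below detection on all untreated ones. Without background correction the changes of Ccnd2 were 2.71 and 2.38.

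Ccnd1 encodes cyclin D1, the D-type cyclin that rises when hepatocytes leave quiescence. Its log2 signal was 9.26, 9.34, 9.51, 9.36 and 9.29 in treated WT livers, against 8.07, 7.47, 7.80, 7.92 and 8.17 in untreated WT livers. Ccnd1 in ApoE-/- livers was 9.81, 9.62, 9.64, 8.80 and 8.74 with treatment, against 8.26, 8.05, 7.61, 7.95 and 7.57 without. No treated array fell within the untreated range of its genotype. The change was 2.76-fold in WT (log2 1.47, 1.06 to 1.87, adjusted p 4.55e-06) and 2.70-fold in ApoE-/- livers (log2 1.43, 1.03 to 1.84, adjusted p 1.64e-05). A further probe detected on all arrays gave 1.5 and 1.48, and one detected on 16 arrays 0.52 and 0.38, neither past the threshold.

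The other G1 genes moved little. Ccnd3, the gene of cyclin D3, had log2 signals of 8.86, 9.28, 8.91, 8.96 and 9.07 in treated WT livers, against 8.86, 8.71, 8.74, 8.59 and 8.45 in untreated WT livers, and 9.36, 9.52, 9.39, 9.02 and 8.80 in treated ApoE-/- livers, against 9.17, 8.82, 8.79, 8.74 and 8.77 in untreated ones. The groups overlapped in both genotypes, and the changes of 0.35 (adjusted p 0.0432) and 0.36 (adjusted p 0.0436) lay close to the threshold. The call was lost in WT mice without treated replicate 2, 4 or 5 or untreated replicate 2, 3, 4 or 5, and in ApoE-/- mice without treated replicate 1, 2 or 3 or untreated replicate 2, 3, 4 or 5, with changes of 0.28 to 0.36 and 0.29 to 0.35.

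Cdk4, the kinase that D-type cyclins activate, had log2 signals of 7.20, 7.10, 7.37, 7.31 and 6.92 in treated WT livers, against 7.54, 7.34, 7.46, 7.57 and 7.20 in untreated WT livers. Cdk4 in ApoE-/- livers was 6.75, 7.24, 7.36, 7.40 and 7.35 with treatment, against 7.43, 7.58, 7.58, 7.57 and 7.59 without. Every treated ApoE-/- array was below every untreated one, by little, and the fall of 0.33 (1.26-fold, adjusted p 0.0398) passed the test while the change of -0.24 in WT livers did not (adjusted p 0.115). The call was lost without treated replicate 1 (-0.22) or 2 (-0.34), without untreated replicate 2, 3, 4 or 5 (-0.32 to -0.33) and with equal array medians (-0.21), and another Cdk4 probe, detected on 12 arrays, gave 0.25 and 0.17, neither past the threshold. Cdkn2c, which encodes an inhibitor of Cdk4 and Cdk6, changed by 0.27 in WT (adjusted p 0.135) and rose by 0.37 in ApoE-/- livers (adjusted p 0.0481), a call lost without background correction (0.17), in the authors' processed values (0.15), and without treated replicate 1, 2, 3 or 4 or untreated replicate 1, 3 or 5 (0.29 to 0.38). Cdk6 was detected on 3 arrays and was not tested.

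**Figure D3:**
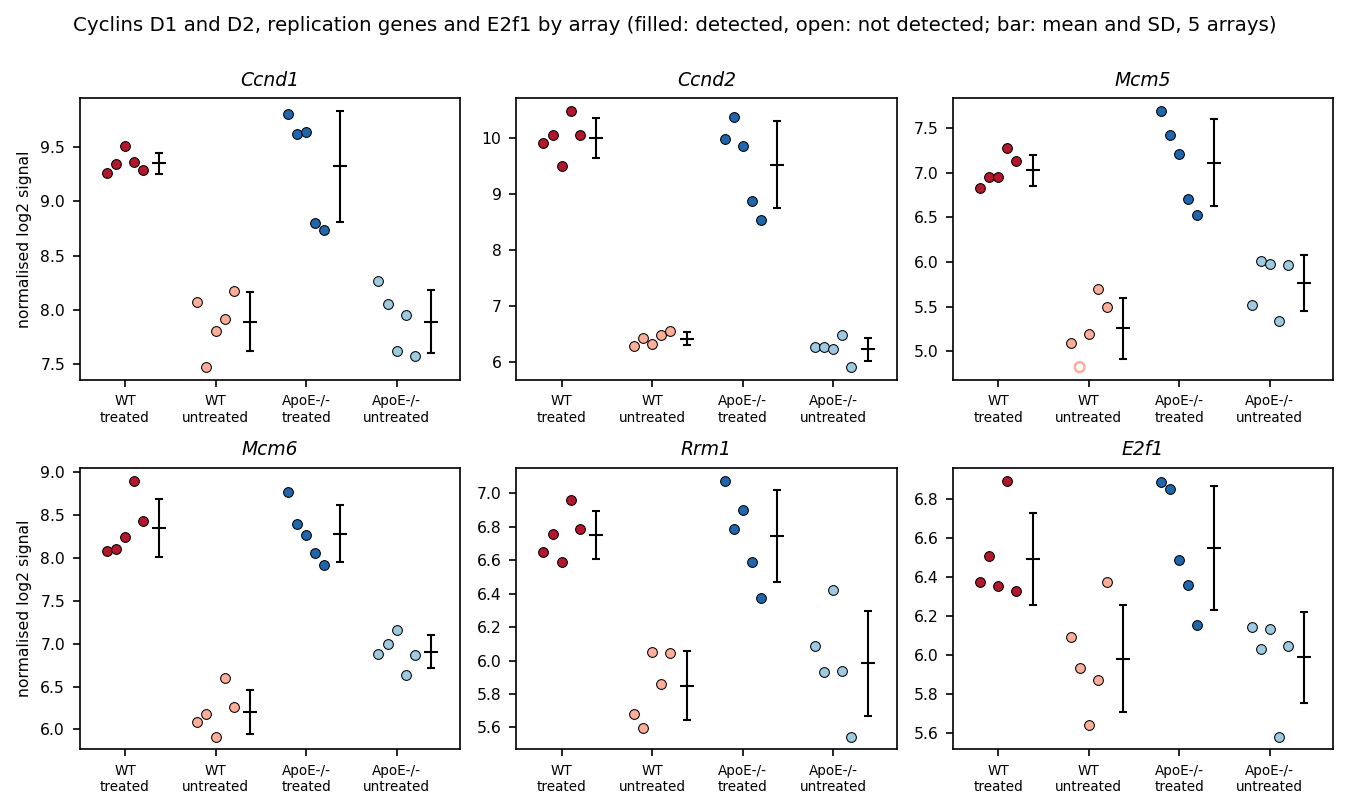
Log2 signal of Ccnd1, Ccnd2, Mcm5, Mcm6, Rrm1 and E2f1 on each array by group, in order of replicate number from left to right, with the mean and SD of 5 arrays; filled points were detected. For Ccnd1, Ccnd2, Mcm5 and Mcm6 treated and untreated arrays do not overlap in either genotype, and E2f1 overlaps in WT mice.

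Of the genes that carry G1 into S phase, E2f1, the E2F factor that activates replication genes, rose in both genotypes. Its log2 signal was 6.37, 6.51, 6.36, 6.89 and 6.33 in treated WT livers, against 6.09, 5.93, 5.64, 5.87 and 6.37 in untreated WT livers, and 6.89, 6.85, 6.49, 6.36 and 6.15 in treated ApoE-/- livers, against 6.15, 6.03, 6.13, 5.58 and 6.05 in untreated ones. One untreated WT array lay inside the treated range, while the ApoE-/- groups met at 6.15 without crossing. The rise was 1.42-fold in WT (log2 0.51, adjusted p 0.0165) and 1.47-fold in ApoE-/- livers (log2 0.56, adjusted p 0.0123). The WT call of E2f1 was lost without treated replicate 4 (0.41) or untreated replicate 3 (0.42). Cdk2, the partner kinase of cyclins E and A, changed by 0.01 (adjusted p 0.933) and 0.10 (adjusted p 0.504). Its other probes gave -0.29 and -0.57 in WT livers. The -0.57 passed (adjusted p 0.00234), so the probes of Cdk2 disagreed there. The cyclin E genes Ccne1 and Ccne2 were detected on 3 and 2 arrays.

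The origin licensing and fork genes followed, led by the subunits of the Mcm helicase. Of 8 tested, 6 rose in WT and 5 in ApoE-/- livers and 0 fell, where 21.7% and 16.3% of all features rose and 16.7% and 13.3% fell. The median log2 change was 0.77 in WT and 0.57 in ApoE-/- livers. Cdc45, Gins1 and Gins2, whose proteins join the Mcm ring to form the active helicase, were detected on 4, 4 and 1 arrays and were not tested.

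Mcm6 had log2 signals of 8.07, 8.10, 8.23, 8.89 and 8.42 in treated WT livers, against 6.09, 6.18, 5.92, 6.60 and 6.26 in untreated WT livers. Mcm6 in ApoE-/- livers had 8.77, 8.39, 8.27, 8.05 and 7.92 with treatment, against 6.88, 7.00, 7.15, 6.64 and 6.86 without. Treated arrays of the genotypes covered a common range, whereas every untreated ApoE-/- array was above every untreated WT array. The rise was 4.40-fold in WT (log2 2.14, 1.78 to 2.50, adjusted p 6.23e-09) and 2.59-fold in ApoE-/- livers (log2 1.37, 1.02 to 1.73, adjusted p 7.11e-06). Other probes of Mcm6, each detected on 17 arrays, gave 1.81 and 1.29 in WT and 0.97 and 0.77 in ApoE-/- livers.

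Mcm5 had log2 signals of 6.82, 6.95, 6.95, 7.27 and 7.13 in treated WT livers, against 5.09, 4.82, 5.19, 5.69 and 5.49 in untreated WT livers. Mcm5 in ApoE-/- livers had 7.69, 7.42, 7.21, 6.71 and 6.52 with treatment, against 5.52, 6.01, 5.98, 5.34 and 5.97 without. The groups were separate in both genotypes, with rises of 3.40-fold (log2 1.77, adjusted p 8.0e-07) and 2.55-fold (log2 1.35, adjusted p 5.07e-05). The promoters of Mcm5 and Mcm6 are the pair printed with E2F letters in capitals.

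Mcm4 had log2 signals of 8.34, 8.41, 8.0, 8.43 and 8.26 in treated WT livers, against 7.33, 7.43, 6.96, 7.00 and 7.24 in untreated WT livers, and 8.57, 8.42, 8.37, 8.28 and 7.66 in treated ApoE-/- livers, against 7.91, 7.36, 7.27, 7.56 and 7.25 in untreated ones. Replicate 5 of the treated ApoE-/- group lay among the untreated arrays, and the WT groups did not overlap. The rise was 2.14-fold (log2 1.10, adjusted p 1.30e-05) in WT and 1.73-fold (log2 0.79, adjusted p 7.57e-04) in ApoE-/- livers. Mcm2 was near the detection limit, with 5.29, 5.57, 5.52, 5.82 and 5.46 in treated WT livers, against 4.33, 4.46, 4.69, 4.44 and 5.06 in untreated WT livers, only the last of which was detected. In ApoE-/- livers Mcm2 had 5.91, 5.81, 5.53, 5.31 and 5.36 with treatment, against 5.57, 4.92, 4.81, 5.18 and 5.00 without. Its rise was 0.94 in WT (adjusted p 9.86e-05) and 0.49 in ApoE-/- livers (adjusted p 0.0259), and the ApoE-/- call was lost without background correction (0.16) and without treated replicate 1 or 2 or untreated replicate 2, 3 or 5 (0.41 to 0.47).

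Pcna, the sliding clamp of the replication fork, rose 1.53-fold in WT (log2 0.61, adjusted p 0.0304) and 1.56-fold in ApoE-/- livers (log2 0.64, adjusted p 0.0290), with treated and untreated arrays overlapping in both. Mcm7 rose by 0.52 in WT (adjusted p 0.0315) and changed by 0.34 in ApoE-/- livers (adjusted p 0.184), where another probe of it gave 0.51 (adjusted p 0.0244). The Pcna call was lost in WT mice without treated replicate 4 or 5 or untreated replicate 1 or 3 (0.47 to 0.59), and in ApoE-/- mice without treated replicate 1 or 5 or untreated replicate 2, 3 or 4 (0.52 to 0.61). The WT call of Mcm7 was lost without treated replicate 2 or 3 or untreated replicate 2 or 4 (0.40 to 0.52). Mcm3 changed by -0.01 in ApoE-/- livers and Cdc6, the loader of the Mcm ring, by 0.33 in WT livers, and neither passed in either genotype. No change is given for Mcm3 in WT or for Cdc6 in ApoE-/- mice, since all untreated arrays there were below detection.

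Genes of deoxynucleotide synthesis did not move together. Rrm1, the large subunit of ribonucleotide reductase, had log2 signals of 6.65, 6.76, 6.59, 6.96 and 6.79 in treated WT livers, against 5.68, 5.60, 6.05, 5.86 and 6.05 in untreated WT livers, and 7.07, 6.78, 6.90, 6.59 and 6.37 in treated ApoE-/- livers, against 6.09, 5.93, 6.42, 5.94 and 5.55 in untreated ones. The WT groups were separate, and in ApoE-/- mice treated replicate 5 at 6.37 lay below untreated replicate 3 at 6.42. The rise was 1.87-fold (log2 0.90, adjusted p 6.81e-05) and 1.69-fold (log2 0.76, adjusted p 6.30e-04). Another Rrm1 probe, detected on 15 arrays, gave 0.75 (adjusted p 0.0224) in WT and 0.52 in ApoE-/- livers, where it did not pass (adjusted p 0.128).

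Tyms, which makes thymidylate, had log2 signals of 6.38, 6.34, 6.16, 6.63 and 6.53 in treated WT livers, against 6.63, 6.98, 6.77, 6.82 and 6.56 in untreated WT livers, a fall of 0.34 (1.27-fold, adjusted p 0.0110). In ApoE-/- livers it had 6.55, 6.22, 6.44, 6.29 and 6.48 with treatment, against 6.51, 6.54, 6.71, 6.59 and 6.64 without, a change of -0.20 (adjusted p 0.153). The WT groups overlapped, and with equal array medians the WT change of Tyms turned to 0.11 (adjusted p 0.576), against a shift of 0.26 in all features. Another Tyms probe, detected on 18 arrays, gave -0.32 (adjusted p 0.112) and -0.01 (adjusted p 0.978), so the WT call was lost with it. Rrm2, the small subunit of the reductase, changed by 0.50 (adjusted p 0.167) and 0.45 (adjusted p 0.255), and passed in both genotypes with replicate number as a block (adjusted p 0.0177 and 0.0404). Tk1, the thymidine salvage kinase, changed by 0.19 (adjusted p 0.290) and 0.34 (adjusted p 0.0569), and passed in ApoE-/- livers with that block (adjusted p 0.0431).

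The G2 and mitosis genes were faint or undetected in untreated livers. Of 9 tested, 8 rose in WT and 9 in ApoE-/- livers and 0 fell. Of all features 21.7% rose and 16.7% fell in WT livers, and 16.3% rose and 13.3% fell in ApoE-/- livers. The median change of the 9 was 0.77 in WT and 0.88 in ApoE-/- livers, or 0.57 and 0.77 with undetected members at their bound. Cdk1, Plk1, Cdc20 and Top2a were detected on 0 of the 10 untreated arrays. In WT livers these 4 were detected on 5 of 5 treated arrays, a pattern found in 2.00% of all features. In ApoE-/- livers the pattern held for Cdk1, Plk1, Cdc20 and Aurkb, against 0.563% of all features, and Top2a was detected on 4 of 5 treated arrays. All of these genes passed the filter through their treated arrays, so the filter itself partly set the counts of this phase.

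Cdk1, the kinase that drives entry into mitosis, had log2 signals of 4.92, 5.30, 5.15, 5.37 and 5.14 in treated WT livers, against 4.40, 4.53, 4.49, 4.48 and 4.42 in untreated WT livers. Cdk1 in ApoE-/- livers had 5.51, 5.67, 5.82, 5.35 and 4.99 with treatment, against 4.33, 4.63, 4.57, 4.38 and 4.43 without. All untreated values were below detection, so Cdk1 was at least 1.15-fold higher in treated WT livers (adjusted p 1.38e-04) and at least 1.52-fold higher in treated ApoE-/- livers (adjusted p 7.68e-06). Such a bound sets the treated mean against the lowest signal detected on each untreated array. The adjusted p printed beside a bound belongs to the change that limma fitted to the normalized values, not to the bound. Since such genes passed the filter through their treated arrays, it describes the values and is no independent test.

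Cdc20, which activates the ubiquitin ligase that ends metaphase, had 5.83, 6.07, 5.99, 5.66 and 5.02 in treated WT livers, against 4.54, 4.53, 4.29, 4.27 and 4.53 in untreated WT livers. Cdc20 in ApoE-/- livers had 6.02, 5.77, 5.89, 5.41 and 5.12 with treatment, against 4.54, 4.58, 4.81, 4.78 and 4.67 without. It was at least 1.67-fold higher in treated WT (adjusted p 7.20e-06) and at least 1.71-fold higher in treated ApoE-/- livers (adjusted p 3.18e-04). In both genotypes the lowest 2 treated arrays were replicates 4 and 5. Another Cdc20 probe, detected on 6 arrays, was below detection on all untreated WT arrays and gave 0.11 in ApoE-/- livers (adjusted p 0.552).

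Plk1, the kinase of centrosome maturation and spindle assembly, had 5.75, 5.77, 5.35, 5.65 and 5.17 in treated WT livers, against 4.45, 4.43, 4.43, 4.64 and 4.45 in untreated WT livers. Plk1 in ApoE-/- livers had 6.19, 5.97, 5.88, 5.35 and 4.89 with treatment, against 4.48, 4.72, 4.60, 4.30 and 4.45 without. It was at least 1.48-fold higher in treated WT (adjusted p 1.09e-04) and at least 1.73-fold higher in treated ApoE-/- livers (adjusted p 9.26e-05). No treated array reached down into the untreated range.

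Bub1b, a kinase-like protein of the spindle checkpoint, had 6.01, 6.11, 5.97, 6.19 and 5.71 in treated WT livers, against 4.94, 4.50, 4.51, 5.39 and 4.95 in untreated WT livers, and 5.76, 6.14, 6.12, 5.80 and 4.97 in treated ApoE-/- livers, against 4.68, 5.07, 5.01, 4.42 and 4.85 in untreated ones. It was detected on 2 untreated arrays of each genotype. The rise was 2.20-fold (log2 1.14, adjusted p 1.22e-04) in WT and 1.93-fold (log2 0.95, adjusted p 0.00115) in ApoE-/- livers, where replicate 5 of the treated group overlapped the untreated arrays.

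**Figure D4:**
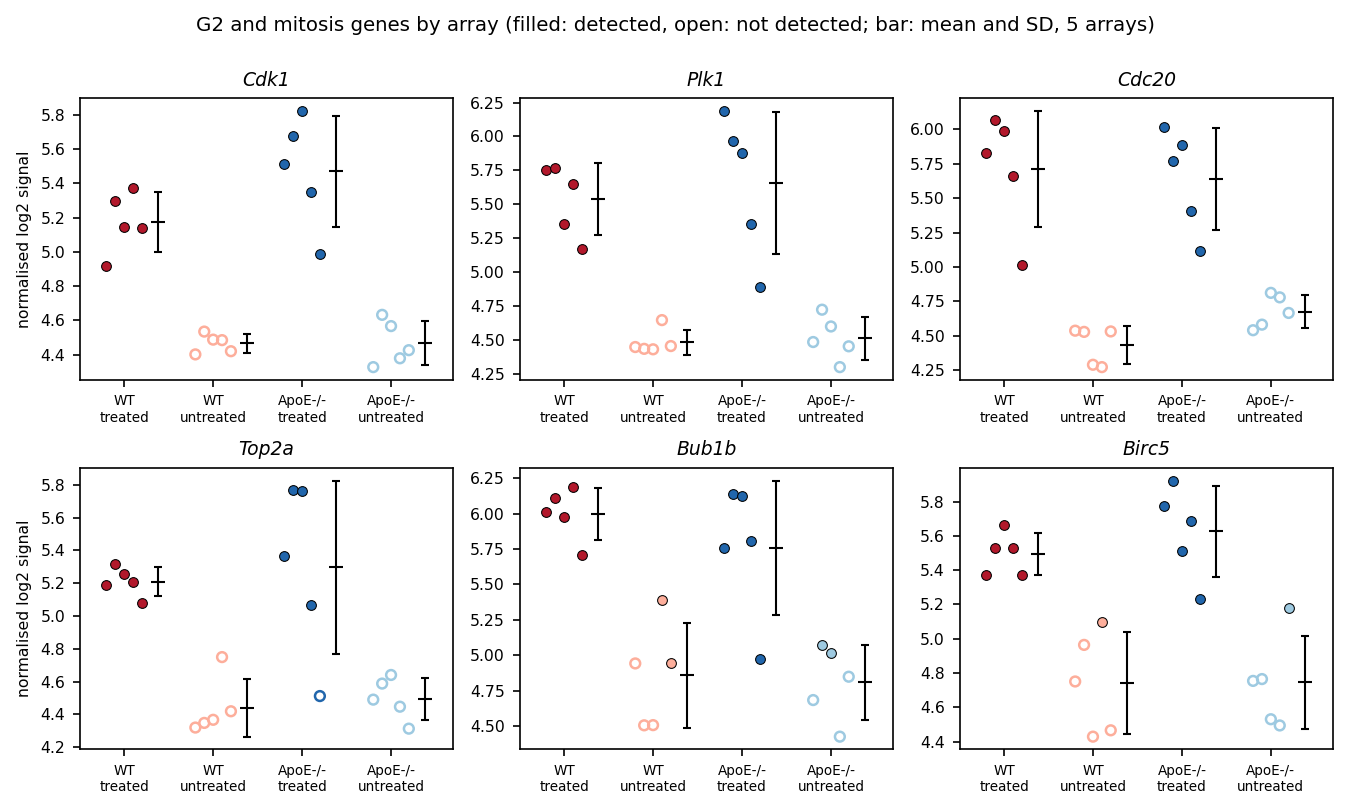
Log2 signal of Cdk1, Plk1, Cdc20, Top2a, Bub1b and Birc5 on each array by group, in order of replicate number from left to right, with the mean and SD of 5 arrays; open points were not detected. Cdk1, Plk1, Cdc20 and Top2a are open on all 10 untreated arrays, and treated ApoE-/- replicate 5 of Top2a at 4.51 is the only open treated point.

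Of the other mitosis genes tested, all but Aurka in WT mice passed upward in both genotypes. Top2a, the topoisomerase that untangles sister chromatids, was at least 1.18-fold higher in treated WT (adjusted p 0.00138) and at least 1.35-fold higher in treated ApoE-/- livers (adjusted p 0.00146). Birc5, the chromosomal passenger protein survivin, rose by 0.75 (adjusted p 5.21e-04) and 0.88 (adjusted p 1.95e-04). Its probe was detected on only 1 untreated array of each genotype, so these sizes rest largely on values below detection. Another Birc5 probe gave 0.37 in ApoE-/- livers (adjusted p 0.0205) and was below detection on all untreated WT arrays, and a further one was below detection on all untreated arrays. That further Birc5 probe was detected on 3 treated WT and 4 treated ApoE-/- arrays. In limma it passed in ApoE-/- livers (adjusted p 0.00912) but not in WT livers (adjusted p 0.135). Stmn1, which destabilises microtubules, rose by 0.93 (adjusted p 1.72e-04) and 0.68 (adjusted p 0.00432), and was detected on 1 untreated WT and 4 untreated ApoE-/- arrays.

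Aurkb, the kinase of the passenger complex, rose by 0.43 in WT (adjusted p 0.0125) and was at least 1.15-fold higher in treated ApoE-/- livers (adjusted p 0.00375). Only 1 untreated WT array detected Aurkb. Aurka, the spindle pole kinase, averaged 5.19 ± 0.14 in treated and 4.95 ± 0.47 in untreated WT livers (SD, n = 5 each), a change of 0.24 that did not pass (adjusted p 0.265). In ApoE-/- livers Aurka averaged 5.45 ± 0.09 with treatment and 4.67 ± 0.20 without, a rise of 0.79 (adjusted p 8.80e-04). The Aurka changes themselves differed by 0.55 between genotypes, without passing (adjusted p 0.235).

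Of the remaining G2 and mitosis genes with a probe, Ccna2, Bub1 and Ube2c were detected on 0 arrays and Ccnb2 and Cks2 on 1. These 5 belong with Cdk6, Ccne1, Ccne2, Cdc45, Gins1 and Gins2 to the 11 members below the detection filter. When all probes were tested without that filter, none of the 11 passed in either treatment contrast, and the smallest adjusted p was 0.0521, for Ccne2 in ApoE-/- livers.

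**Figure D5:**
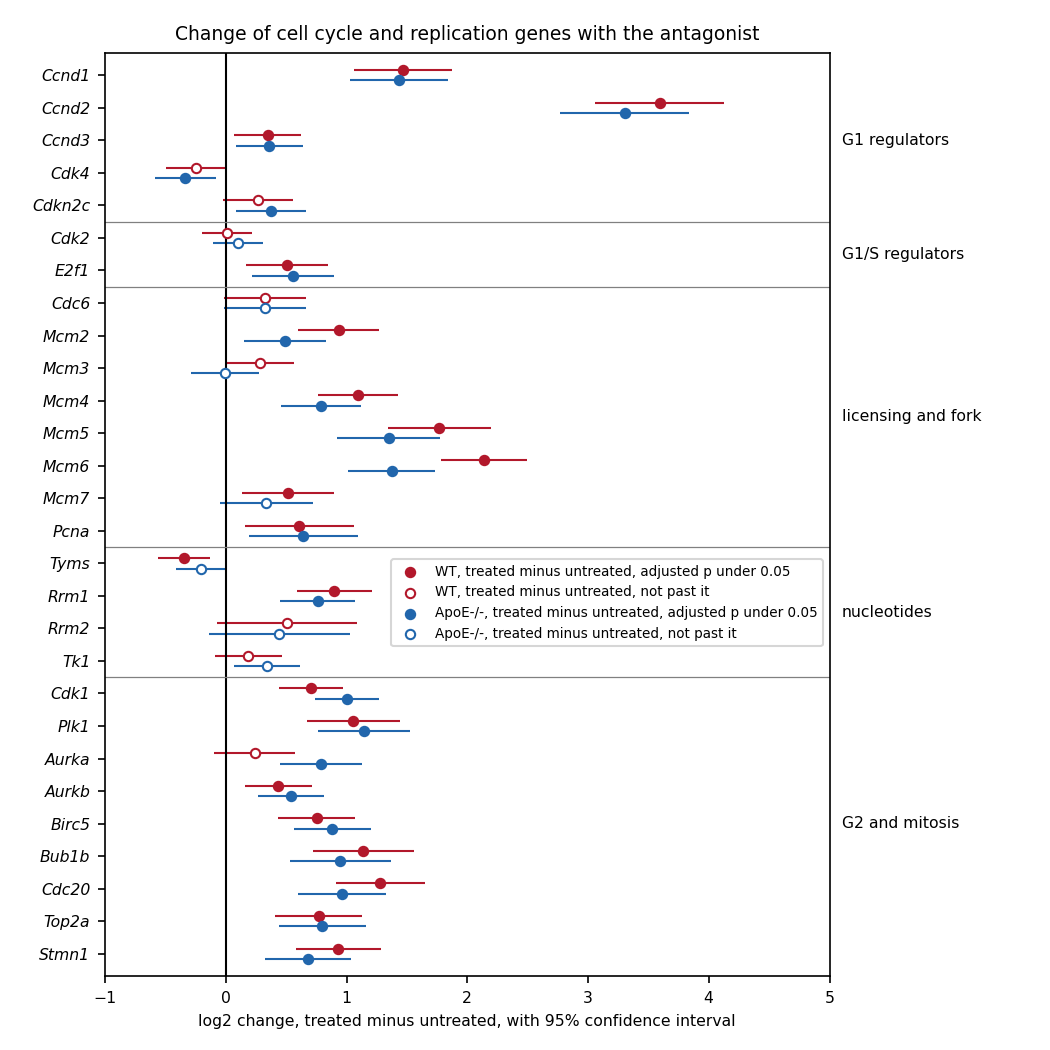
Log2 change, treated minus untreated, of the 28 measured genes with its 95% confidence interval, for WT (red, upper of each pair) and ApoE-/- mice (blue, lower), filled where the limma adjusted p was under 0.05. Ccnd2 at 3.59 and 3.30 stands to the right of the other genes, Tyms and Cdk4 lie left of 0, and for Cdk1, Plk1, Cdc20 and Top2a, for Mcm3 in WT mice and for Aurkb and Cdc6 in ApoE-/- mice the plotted fitted value rests on untreated arrays below detection.

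The size of the antagonist response did not differ between genotypes past the threshold for any of the 28 members, with 2.74% of all features passing in limma; 2 (Mcm6 and Aurka) had an unadjusted p under 0.05. The smallest adjusted p of that difference was for Mcm6, whose response was smaller in ApoE-/- mice by 0.76 (95% interval -1.27 to -0.26, adjusted p 0.102). It passed without replicate 1 of the treated ApoE-/- group (-0.89, adjusted p 0.0311) and when arrays were given equal medians (-1.06, adjusted p 0.0436). The difference was -0.03 for Ccnd1 (-0.61 to 0.54) and -0.29 for Ccnd2 (-1.05 to 0.47), intervals that leave room for differences of up to about 1 log2 unit in Ccnd2.

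In untreated mice Mcm6 was the 1 member of the 28 that passed between genotypes, higher by 0.70 in ApoE-/- livers (adjusted p 0.0162), where 5.52% of all features passed and 4.13% were higher. An unadjusted limma p under 0.05 was reached by 5 members (Mcm2, Mcm3, Mcm5, Mcm6 and Stmn1), all higher in untreated ApoE-/- livers. The median difference of the 8 tested licensing and fork genes was 0.33. The Mcm6 call was lost without replicate 3 of the untreated WT group, in batch 2 alone, without background correction and in the authors' processed values. With replicate number as a block, Mcm6 (adjusted p 0.0257) and Stmn1 (0.56 higher, adjusted p 0.0198) passed. Between treated mice 0 of the 28 passed in limma, where 5.08% of all features passed, and 1 (Cdk1) had an unadjusted p under 0.05. In batch 2 alone Ccnd2 was lower by 1.57 in treated ApoE-/- than in treated WT livers (adjusted p 0.0115).

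Genes of the same pathways outside the 41 moved in both directions, and their counts stand against 21.7% of all features up and 16.7% down in WT mice and 16.3% up and 13.3% down in ApoE-/- mice. Of 29 further replication genes 12 rose and 5 fell in WT livers and 9 rose and 2 fell in ApoE-/- livers, with medians of 0.22 and 0.16, and the falls were a share near that of all features in WT mice. Uhrf1, which recruits the maintenance DNA methyltransferase to replicated DNA, rose by 2.12 and 1.87, Lig1, the ligase that joins Okazaki fragments, by 1.16 and 1.12, Dnmt1, that methyltransferase, by 0.93 and 0.53, and Rpa1, which coats single-stranded DNA, by 0.77 and 0.54. Mcm10, a fork protein that is no part of the Mcm ring, fell by 1.53 in WT and by 0.77 in ApoE-/- livers (adjusted p 4.10e-06 and 0.00629).

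Of 22 further mitosis genes 13 rose and 2 fell in WT and 10 rose and 2 fell in ApoE-/- livers, with medians of 0.57 and 0.45. Prc1, which bundles microtubules of the central spindle, rose by 2.13 and 1.92, Nusap1, a spindle microtubule protein, by 1.43 and 1.45, and Kif22, a chromosome-bound kinesin, by 1.31 and 1.11. The kinetochore gene Spc25 fell by 0.94 and 0.89, and was singled out after its values were seen. Among the 49 with a probe, 10 were detected on 0 arrays, Ttk, Nek2 and Kif20a among them.

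Of 29 further regulators and inhibitors 7 rose and 4 fell in WT and 5 rose and 7 fell in ApoE-/- livers, with medians of 0.10 and 0.04, and the WT share called was near the 38.4% of all features. Cdkn1a, which encodes the Cdk inhibitor p21, rose 6.88-fold in WT (log2 2.78, adjusted p 4.79e-05) and 8.67-fold in ApoE-/- livers (log2 3.12, adjusted p 3.15e-05). Its group means were 8.80 ± 0.31 in treated and 6.02 ± 1.10 in untreated WT livers and 9.78 ± 0.68 in treated and 6.67 ± 0.86 in untreated ApoE-/- livers (SD, n = 5 each). Rb1, the retinoblastoma gene, rose by 0.91 and 0.47, Tob1, an antiproliferative gene, fell by 0.86 and 1.04, and Tfdp1, the dimer partner of E2F factors, fell by 0.38 and 0.58. Foxm1, the factor behind many G2 genes, was below detection on all untreated WT arrays and changed by 0.20 in ApoE-/- livers, and it passed in neither genotype.

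Of 10 checkpoint and repair genes 4 rose in WT and 2 in ApoE-/- livers and 0 fell, with medians of 0.31 and 0.20. Counted in either direction, the shares called were near the 38.4% of all features in WT and below the 29.6% in ApoE-/- mice. Upward alone, 21.7% and 16.3% of all features passed. Against these, 4 of 10 was a larger share in WT mice and 2 of 10 a share near that of all features in ApoE-/- mice. Timeless, a fork protection gene, rose by 1.07 and 0.81. Tipin, its partner, rose by 0.60 in WT and changed by 0.08 in ApoE-/- livers, and the helicase gene Blm rose by 1.09 and changed by 0.36. H2ax, the histone variant marked at DNA breaks, changed by -0.21 in WT (adjusted p 0.281) and rose by 0.59 in ApoE-/- livers (adjusted p 0.00438), and this difference of 0.80 between genotypes passed its own test (adjusted p 0.0403).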

How the data were processed

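Liver RNA of male mice was measured on 20 Illumina BeadChip arrays, 5 in each group. The deposited values are linear intensity values with a detection p-value per probe, exported with GenomeStudio or BeadStudio per the submitters' processing notes, whose versions no source used here gives. The deposited intensity values had been scaled within each genotype and array batch, as seen from equal array means; the method is unknown here. Batches and slides were read from the file's column names: batch 1 held replicates 1 to 3 and batch 2 replicates 4 and 5, on slides that were named only for batch 2. The number of arrays and the signal above background, not a count, limit the precision.

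Intensities were background-corrected by normexp from the deposited detection p-values, quantile normalized and put on the log2 scale with an offset of 16 (neqc in limma 3.58.1, R 4.3.3). Probes detected at p under 0.05 on at least 5 arrays were kept. Of all probes, 34885 had 1 gene symbol in the platform annotation, 18 several and 10378 none, and 10 symbols were updated through RefSeq. The probe of highest mean signal stood for a gene. Group means of all 20 arrays were fitted with limma, and p-values were adjusted over all 12976 features in each of 5 contrasts. The fit was tested on simulated data.

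The genes and lists were chosen with earlier results of these data known. Single array values are printed for up to 4 members of each phase, those with the smallest adjusted p; further genes are the 3 of each list with the smallest adjusted p per genotype, and Spc25, Foxm1 and others named beside a count were added after their values were seen. Same-numbered treated and untreated arrays deviated together (correlation of deviations from the group means 0.304 to 0.406 in WT and 0.172 to 0.426 in ApoE-/- mice). So did treated arrays of the genotypes (0.115 to 0.268), but not all untreated ones (-0.00176 to 0.488). Same-numbered arrays differing in both genotype and treatment gave 0.0434 to 0.315 (treated WT) and 0.0116 to 0.318 (untreated WT). Differently numbered arrays were not compared and batch was left in, so these values cannot show that the numbers pair arrays. Alternatives were other scalings, no background correction, the authors' processed values, other detection filters, another probe, fits of the compared groups alone, blocks for replicate, batch or slide, each batch alone and each array left out.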

Additional observations from a re-analysis of the deposited data

Results flagged for a closer look

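Among 112 sets of 5 arrays (28 genes in 4 groups), 9 held an array whose gap to its nearest neighbour exceeded 0.71 of the set's range (Dixon's test), where about 5.6 would be exceeded by chance. Log2 signals are given, the outlying array first. In untreated ApoE-/- livers replicate 1 was high for Ccnd3 (9.17, next 8.82) and Rrm2 (5.45, next 4.70) and low for Cdk4 (7.43, next 7.57) and Tk1 (8.19, next 8.62). Replicate 4 of that group was low for E2f1 (5.58, next 6.03). In treated ApoE-/- livers replicate 1 was low for Cdk4 (6.75, next 7.24), and without it the fall of Cdk4 was 0.22 and no longer passed. In treated WT livers replicate 2 was high for Cdc6 (5.42, next 4.91). In untreated WT livers replicate 4 was high for Plk1 (4.64, next 4.45) and Top2a (4.75, next 4.42), all values there being below detection.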

How the results depend on the processing

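The numbers of members that rose and fell were 19 and 1 in WT mice and 20 and 1 in ApoE-/- mice. With each array left out in turn the number that rose ranged from 16 to 20 in WT and from 16 to 19 in ApoE-/- mice, and the number that fell was 1 throughout in WT and ranged from 0 to 1 in ApoE-/- mice. A second probe, available for 12 members, gave 7 that rose and 0 that fell in WT and 5 and 0 in ApoE-/- mice, with fewer genes tested. In batch 2 alone 0 fell in WT mice, and 6 rose and 0 fell in ApoE-/- mice, with fewer arrays. In ApoE-/- mice 0 fell with equal medians, without the detection filter, in a fit of the compared groups alone and in batch 1 alone; in WT mice 0 fell with equal medians, where Tyms turned to 0.11. Without the detection filter, over 29449 features, 16 rose in WT and 17 in ApoE-/- mice: the rises of Ccnd3 and Pcna in both genotypes, of Mcm7 in WT and of Cdkn2c in ApoE-/- mice were lost (adjusted p 0.0617 to 0.0836). The second probe of Cdk4 turned to 0.17 in ApoE-/- mice. The cause was not tested. The difference between genotypes had 1 member lower (Mcm6) with equal medians and 0 to 1 with an array left out. In untreated mice the number higher in ApoE-/- livers, 1 in the text, was 0 without background correction, in the authors' processed values and in batch 2 alone, and 2 with the replicate block, with batch as a block, with slide as a random block (consensus correlation 0.200) and in batch 1 alone; with an array left out it ranged from 0 (without WT untreated replicate 3) to 3 (without WT untreated replicate 5, Mcm2, Mcm6 and Stmn1). In treated mice batch 2 alone gave 1 lower (Ccnd2), and leaving out an array gave 0 to 1 higher (Cdk1, without ApoE-/- treated replicate 5). The replicate block gave 20 that rose and 1 that fell in WT and 22 and 1 in ApoE-/- mice, changing the calls of Rrm2 in both genotypes and of Tk1 in ApoE-/- mice and no other treatment call. Shares of all features called are not given for the second probe, the missing filter, the replicate block or arrays left out. Those counts thus describe the members alone. Signal near background limits the G2 and mitosis genes, of which Cdk1, Plk1, Cdc20 and Top2a lay below detection on all 10 untreated arrays.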
